A study of Culter alburnus with 6 samples.

Results

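The genes of transforming growth factor beta (TGF-beta) signaling were examined in TCCF2022 cells, a caudal fin line of Topmouth culter (Culter alburnus) described by its makers as fibroblast-like. A row of the expression table was taken as a member when its protein match named TGF-beta ligand 1, 2 or 3, a TGF-beta receptor of type 1, 2 or 3, a latent TGF-beta binding protein, Smad2, Smad3 or Smad7. This gave 25 of 61608 rows, of which 5 were ligand rows, 9 receptor rows, 6 latency rows and 5 Smad rows. No row was matched to tgfb3 or ltbp2, which were not analysed here. Each row is 1 assembled gene of a Trinity transcript assembly, and paralogs were kept apart. Row names below leave out the leading word TRINITY.

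Wild-type TCCF2022 cells were cultured for 7 days with 5 μM Forskolin (F, 3 libraries) or with no treatment (CK, 3 libraries). Both groups were kept at 27 °C with 5% CO2 in DMEM/F12 containing 10% fetal bovine serum and 5 ng/ml bFGF according to the labels. The legend of the study's RNA-seq figure also gives 5 μM Forskolin for 7 days. Its methods section on the medium of Forskolin-treated cells gives other Forskolin and bFGF concentrations. Forskolin is a plant compound that activates adenylate cyclase and raises cyclic AMP, and the comparison asks which genes differ after such treatment. All 6 libraries came from 1 cell line, and the labels do not say whether they were separate cultures, so p-values measure the spread between these libraries, although the study calls its libraries biological replicates.

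TGF-beta ligands are secreted with their propeptide still attached, and latent TGF-beta binding proteins (LTBPs) tether this inactive complex to the matrix. After release, a ligand is bound by the type 2 receptor, a kinase that phosphorylates the type 1 receptor, while the type 3 receptor (betaglycan) presents ligand to them. The type 1 receptor phosphorylates Smad2 and Smad3, which enter the nucleus with Smad4, and Smad7 is an inhibitory Smad that blocks the type 1 receptor and is itself a target gene of the pathway. In fibroblasts TGF-beta is best known for driving the synthesis of matrix and of contractile proteins.

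Levels were given as TPM, the share of a library's transcripts adjusted for transcript length and scaled to the same total in every library, so they can be compared between genes but keep no record of the reads behind each value. The study states an average read yield per library, but the table gives no counts. Between 34560 and 36954 rows reached 1 TPM in the F libraries, against 36010 to 37031 rows in the CK libraries. The correlation of log2(TPM + 1) between libraries of the same group lay between 0.8746 and 0.8967, and the highest between groups was 0.8569. Of 12 fibroblast markers, 8 were matched and all 8 averaged at least 1 TPM, with a summed level of 2845 to 3988 TPM in F and 3520 to 3831 TPM in CK. These 8 leave out col1a1 and col1a2, whose rows were found only by their NR names. That search was made after seeing the data and for no other marker list. With both rows the sum was 7387 to 10340 TPM in F and 15840 to 18600 TPM in CK. The gap came mostly from col1a1, which averaged 5198 TPM in F and 12540 TPM in CK. Not every fibroblast marker was lower in F, as dcn averaged 1572 TPM in F and 882.7 TPM in CK. Of 10 epithelial markers, 7 were matched and 6 averaged at least 1 TPM, with a sum of 5023 to 5570 TPM in F and 6343 to 6567 TPM in CK that came mostly from krt8 and krt18, while cdh1 averaged below 1 TPM. Pigment and neural crest markers (3 of 7 matched) summed to 18.6 to 20.6 TPM in F and 39.9 to 44.4 TPM in CK, endothelial markers (3 of 8) to 15.4 to 18.0 TPM in F and 8.59 to 13.4 TPM in CK, and osteoblast markers (3 of 6) to 308.2 to 354.6 TPM in F and 257.6 to 338.3 TPM in CK. Blood markers (3 of 8) summed to 7.62 to 11.2 TPM in F and 5.13 to 8.44 TPM in CK, the 1 matched neuron marker of 6 lay at 2.94 to 3.99 TPM in F and 1.76 to 3.07 TPM in CK, and none of 8 muscle markers was matched. Matching used the Swiss-Prot gene name, and 16614 of 61608 rows had one. A marker that was not matched was therefore not shown to be absent. The part of any of these marker groups in the results was not tested.

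Forskolin-treated cells held far less transcript of both TGF-beta ligands and of both type 1 receptors, and more of smad7. The rows named type 2 receptor differed in their mix but had nearly the same sum. Of the 25 member rows, 20 reached 1 TPM in at least 3 libraries and were tested with limma on log2(TPM + 1), fitted to all 37532 rows that passed. At an adjusted p below 0.05, 3 member rows were higher and 6 lower in F, beside 6.15% of all tested rows higher and 6.07% lower, or 12.2% in either direction. With a log2 change beyond 1 as well, 1 member row was higher and 6 were lower, against 3.27% and 3.9% of all tested rows (7.18% in either direction). The 3 F libraries lay wholly above the 3 CK libraries in 4 member rows and wholly below them in 8, where 16.4% and 15.7% of all tested rows did so (32.1% in either direction). The median log2 change of the tested members was -0.16, against -0.01 over all tested rows. 1 of the 6 lower rows, a type 2 receptor fragment, passed the filter only through its level in CK. The higher row past the fold threshold, smad7 DN16809_c1_g1, passed it through its level in F, as it measured 1.08, 0.58 and 0.95 TPM in CK. These counts are therefore given as a description.

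**Figure D1:**
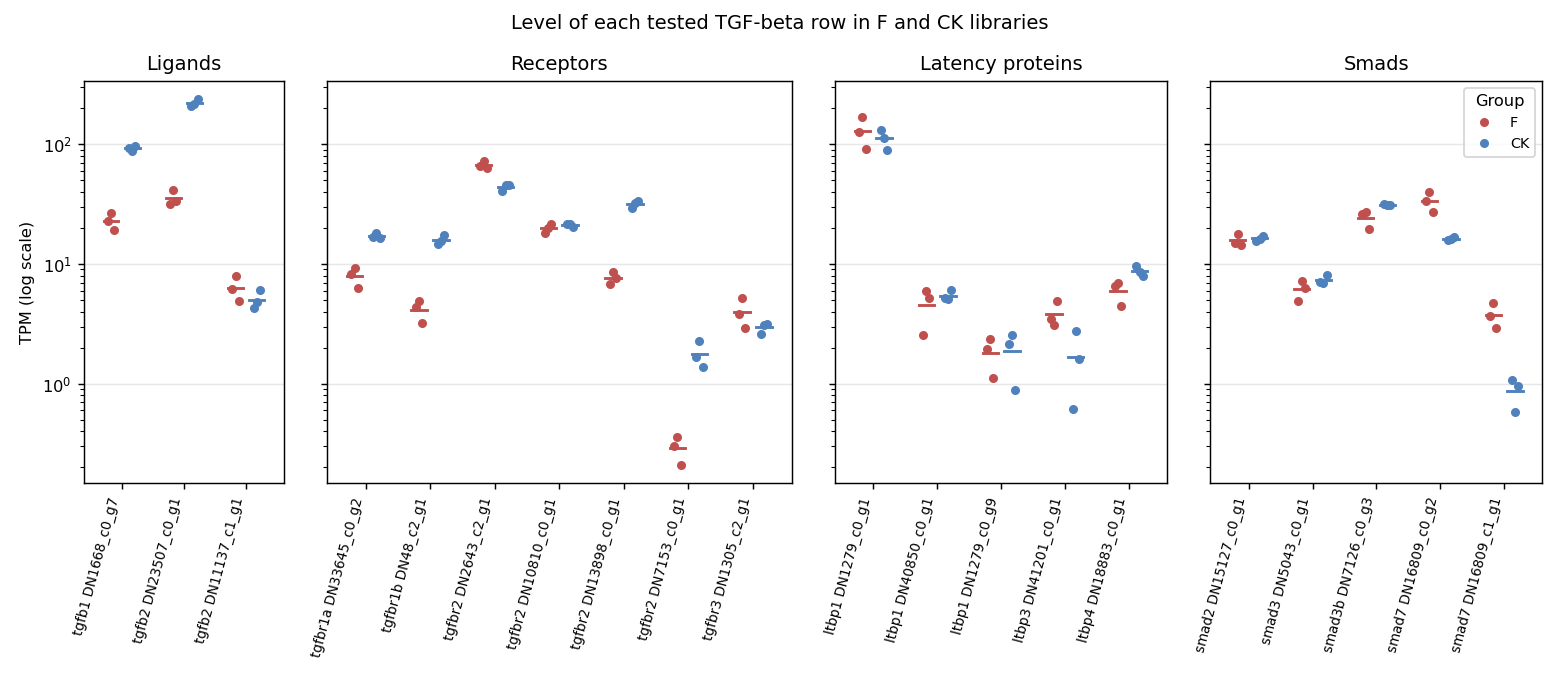
TPM on a log axis for each tested member row, with every library as a point, F left of CK, and a bar at each group mean. The points of the main tgfb2 row lie at 31.7 to 41.3 TPM in F and 210.4 to 237.9 TPM in CK. Those of the main smad7 row lie at 27.4 to 40.2 TPM in F and 15.9 to 16.7 TPM in CK.

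Among the ligands, tgfb2 (row DN23507_c0_g1), whose predicted protein carries both the propeptide and the mature ligand domain, showed the largest fall of the tested members on the log2(TPM + 1) scale. Its level was 31.7, 41.3 and 33.9 TPM in the F libraries, against 210.4, 217.4 and 237.9 TPM in the CK libraries. The highest F library stood far below the lowest CK library, and the groups did not overlap. The mean was 35.6 ± 5.05 TPM in F and 221.9 ± 14.3 TPM in CK (SD, n = 3 each), so that F held 16.1% of the CK level, and the log2 change was -2.61 (SE 0.11, 95% interval -2.88 to -2.34, limma adjusted p = 0.000182). As in any bulk sample, fewer cells that express a gene and less of its RNA per cell cannot be told apart.

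tgfb1 (row DN1668_c0_g7), the ligand most often associated with wound repair and fibrosis in mammals, also fell. It measured 23.1, 26.9 and 19.1 TPM in F, against 93.8, 88.1 and 97.1 TPM in CK. The CK libraries were 4.04-fold higher on average, with no overlap between groups. The mean was 23.0 ± 3.91 TPM in F and 93.0 ± 4.53 TPM in CK (SD, n = 3 each), a log2 change of -1.98 (SE 0.13, 95% interval -2.29 to -1.67, limma adjusted p = 0.000656). The exact two-sided permutation test of the means gave p = 0.1 for both ligands, which is the smallest value that 3 against 3 libraries allow and holds for every member below whose groups did not overlap.

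tgfb2 was the more abundant ligand in every library, by 1.37, 1.54 and 1.78 times in F and by 2.24, 2.47 and 2.45 times in CK. The ratio of tgfb2 to tgfb1 averaged 1.56 ± 0.203 in F and 2.39 ± 0.125 in CK (SD, n = 3 each), with all F values below all CK values. This was 1 of 7 ratios between members that were compared, and each of the 7 separated the groups with exact p = 0.1 (0.1 after Benjamini-Hochberg adjustment). For pairs whose members moved wholly in opposite directions, such as smad7 and smad3b, this separation follows from the single rows and adds no support.

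The other ligand rows were small. A second tgfb2 row (DN11137_c1_g1), named only by its match in the NR protein database, held 6.18, 7.86 and 4.88 TPM in F and 4.29, 4.77 and 6.08 TPM in CK. These ranges overlapped, and its log2 change of 0.26 (95% interval -0.25 to 0.78) did not pass the test (adjusted p = 0.525). Of the 2 remaining tgfb1 rows, DN40674_c0_g1 was above 0 in 1 F library (3.34 TPM) and 1 CK library (5.40 TPM), and DN36831_c0_g1 was listed at 0 in all 6. Summed over the 5 ligand rows, the level was 60.9, 79.4 and 57.8 TPM in F and 313.9, 310.3 and 341.1 TPM in CK, so F held 20.5% of the CK sum.

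Both paralogs of the type 1 receptor, the kinase that activates smad2 and Smad3, were lower in F. tgfbr1b (row DN48_c2_g1) measured 4.37, 4.86 and 3.20 TPM in F and 14.8, 15.7 and 17.4 TPM in CK. The CK mean was 3.85-fold the F mean and the groups did not overlap. The log2 change was -1.73 (SE 0.16, 95% interval -2.13 to -1.34, limma adjusted p = 0.00222).

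tgfbr1a (row DN33645_c0_g2) measured 8.31, 9.29 and 6.31 TPM in F and 16.7, 18.2 and 16.6 TPM in CK. All F libraries lay below all CK libraries, with a log2 change of -1.03 (SE 0.15, 95% interval -1.39 to -0.67, limma adjusted p = 0.00943). Without CK library 2 the change was -0.99 and its adjusted p was 0.0507, past the threshold. The paralogs were nearly equal in CK, where the ratio of tgfbr1b to tgfbr1a was 0.887, 0.865 and 1.05, whereas in F it was 0.526, 0.523 and 0.507. Together they summed to 12.1 ± 2.37 TPM in F and 33.1 ± 1.42 TPM in CK (SD, n = 3 each).

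The type 2 receptor, which binds the ligand first, was represented by 3 rows that each carried the ligand-binding ectodomain and the kinase domain, and these moved in different directions. The most abundant row, DN2643_c2_g1, measured 66.4, 72.6 and 63.1 TPM in F and 41.1, 46.2 and 45.6 TPM in CK. All F libraries were above all CK libraries, by 1.52-fold on average. The log2 change was 0.59 (SE 0.08, 95% interval 0.39 to 0.80, limma adjusted p = 0.00849), which passed the test but not the fold threshold.

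In the opposite direction, tgfbr2 row DN13898_c0_g1 measured 6.76, 8.53 and 7.62 TPM in F and 29.4, 32.2 and 33.8 TPM in CK. The CK mean was 4.16-fold the F mean, without overlap, and the log2 change was -1.93 (SE 0.11, 95% interval -2.20 to -1.65, limma adjusted p = 0.000518). The row matched to a type-2-like receptor, DN10810_c0_g1, stayed between these, with 18.2, 19.9 and 21.8 TPM in F and 21.8, 21.6 and 20.4 TPM in CK. Its groups overlapped and its log2 change was -0.09, with a 95% interval of -0.31 to 0.14 (adjusted p = 0.628).

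The share of each row in the summed type 2 receptor level changed accordingly. DN2643_c2_g1 made up 72.4%, 71.6% and 68.1% of the sum in F, against 43.8%, 45.2% and 45.1% in CK. DN13898_c0_g1 made up 7.37%, 8.41% and 8.22% in F, against 31.3%, 31.5% and 33.4% in CK, while DN10810_c0_g1 averaged 21.0 ± 2.17% in F and 21.5 ± 1.54% in CK (SD, n = 3 each). The ratio of DN2643_c2_g1 to DN13898_c0_g1 was 8.88 ± 0.832 in F and 1.39 ± 0.0418 in CK.

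The sum of the type 2 receptor rows hardly differed, at 91.7, 101.4 and 92.7 TPM in F and 93.8, 102.2 and 101.2 TPM in CK. When the 3 rows sharing the gene name were added before the fit, the log2 change was -0.03 (95% interval -0.21 to 0.14, limma adjusted p = 0.813), so the calls of both single rows were lost at the level of the gene name. The type 1 rows added in the same way kept theirs, with a log2 change of -1.39 (adjusted p = 0.00351). The summed type 2 level was 7.23, 7.17 and 9.75 times the summed type 1 level in F, against 2.98, 3.02 and 2.98 times in CK. Whether the type 2 receptor rows are paralogs, or isoforms or pieces of 1 gene, was not tested. Rows of like sequence can share reads, and how the authors' counting divided such reads between them was not tested.

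**Figure D2:**
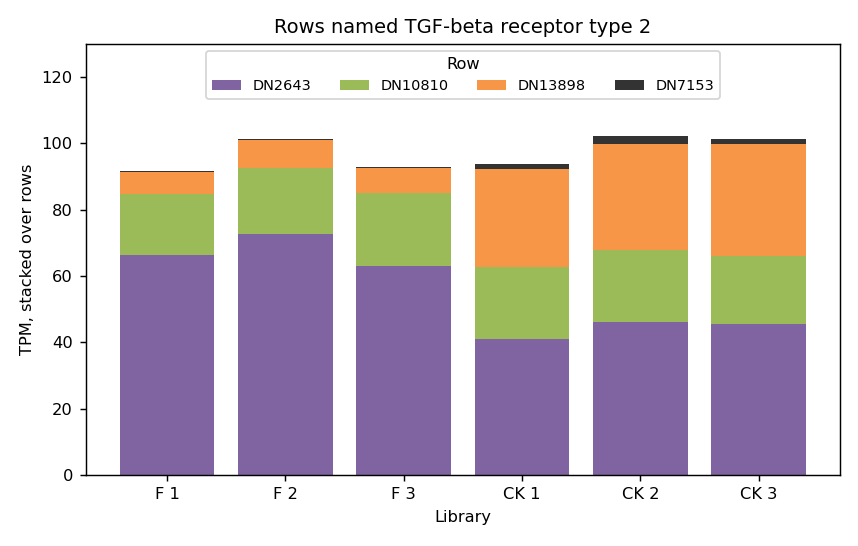
TPM of the 4 type 2 receptor rows stacked in 1 bar per library, with the F libraries left of the CK libraries. Bars reach 91.7 to 101.4 TPM in F and 93.8 to 102.2 TPM in CK. DN2643_c2_g1 takes 68.1% to 72.4% of the bar in F and 43.8% to 45.2% in CK, and DN13898_c0_g1 takes 7.37% to 8.41% in F and 31.3% to 33.4% in CK.

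A further type 2 receptor row, DN7153_c0_g1, carried no annotated domain and was scarce, with 0.30, 0.36 and 0.21 TPM in F and 1.66, 2.25 and 1.38 TPM in CK. It was below 1 TPM in every F library and passed the filter through CK alone. Its log2 change of -1.09 had an adjusted p of 0.0487, and the call was lost when any 1 of the 6 libraries was left out (adjusted p 0.0897 to 0.16). The type 3 receptor row DN1305_c2_g1 measured 3.85, 5.23 and 2.91 TPM in F and 2.62, 3.11 and 3.15 TPM in CK. These values overlapped, with a log2 change of 0.31 (95% interval -0.25 to 0.87, adjusted p = 0.49). Of the 2 other type 3 receptor rows, DN38573_c0_g1 was above 0 in 2 F libraries (10.3 and 4.5 TPM) and DN38187_c0_g1 in 1 CK library (4.03 TPM), and neither was tested.

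No latency row was called in either direction by limma at an adjusted p below 0.05, and at an unadjusted p below 0.05 1 was higher and 1 lower, beside 13% and 12.7% of all tested rows. ltbp1 (row DN1279_c0_g1), which tethers the latent complex to fibrillin-rich matrix, was the most abundant member in F. It measured 127.7, 168.3 and 92.1 TPM in F and 132.8, 112.6 and 90.4 TPM in CK. The groups overlapped throughout, with a log2 change of 0.18 and a wide 95% interval of -0.40 to 0.77 (adjusted p = 0.707). Without F library 2 the change was -0.03.

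The ltbp3 row (DN41201_c0_g1) was named only by its NR match and carried no annotated domain. It measured 3.50, 3.08 and 4.89 TPM in F and 0.61, 2.75 and 1.62 TPM in CK, so all F values were higher. Its log2 change was 0.92 (95% interval 0.04 to 1.80), with an unadjusted p of 0.0422 and an adjusted p of 0.174. ltbp4 (row DN18883_c0_g1) measured 6.58, 6.89 and 4.46 TPM in F and 9.57, 8.64 and 7.98 TPM in CK. All F values were lower here, and the log2 change was -0.50 (adjusted p = 0.15). The 2 further ltbp1 rows that were tested averaged below 6 TPM in both groups and overlapped, and another (DN35149_c0_g1), which Swiss-Prot matched to Fbln7, did not pass the filter. The 6 latency rows together summed to 145.7 ± 39.7 TPM in F and 130.5 ± 21.2 TPM in CK (SD, n = 3 each), whereas the ligand rows stood at 66.1 ± 11.7 TPM in F and 321.7 ± 16.8 TPM in CK.

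Among the Smads, the main row of the inhibitory smad7 (DN16809_c0_g2) rose. This row took its name from Swiss-Prot alone, as its NR match was a hypothetical protein. It carried both conserved Smad domains, as did the smad2 and smad3 rows. It measured 33.6, 40.2 and 27.4 TPM in F and 15.9, 16.3 and 16.7 TPM in CK. The F libraries were 2.07-fold higher on average and spread more widely, but the lowest of them lay above every CK library. The mean was 33.7 ± 6.36 TPM in F and 16.3 ± 0.366 TPM in CK (SD, n = 3 each), with a log2 change of 0.99 (SE 0.14, 95% interval 0.65 to 1.33, limma adjusted p = 0.00885). The call was kept without any 1 library (adjusted p 0.0068 to 0.0436).

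A smaller smad7 row from the same assembly cluster, DN16809_c1_g1, measured 3.67, 4.69 and 2.94 TPM in F and 1.08, 0.58 and 0.95 TPM in CK. It stood apart in the same direction, with a log2 change of 1.34 (SE 0.26, adjusted p = 0.023). This call was lost without F library 1 or 2 or any 1 CK library (adjusted p 0.0583 to 0.0818) and was kept only without F library 3 (0.0403). The row carried no annotated domain and passed the filter through its level in F. Rows of 1 cluster may be pieces of 1 gene and are not independent measurements.

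The receptor-activated Smads did not pass the test. smad3b (row DN7126_c0_g3) measured 26.4, 27.0 and 19.6 TPM in F and 31.8, 30.9 and 31.4 TPM in CK. All F values were lower, but the log2 change of -0.37 (95% interval -0.69 to -0.05) had an adjusted p of 0.139. smad2 (row DN15127_c0_g1) measured 15.1, 17.9 and 14.3 TPM in F and 15.5, 16.3 and 17.3 TPM in CK, which overlapped, with a log2 change of -0.06 (95% interval -0.33 to 0.21). The second Smad3 row (DN5043_c0_g1) overlapped too, at 4.92 to 7.19 TPM in F and 6.95 to 8.02 TPM in CK. The ratio of smad7 to smad3b was 1.27, 1.49 and 1.40 in F, against 0.501, 0.527 and 0.531 in CK, so that smad7 was the more abundant of the pair in every F library and the less abundant in every CK library.

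**Figure D3:**
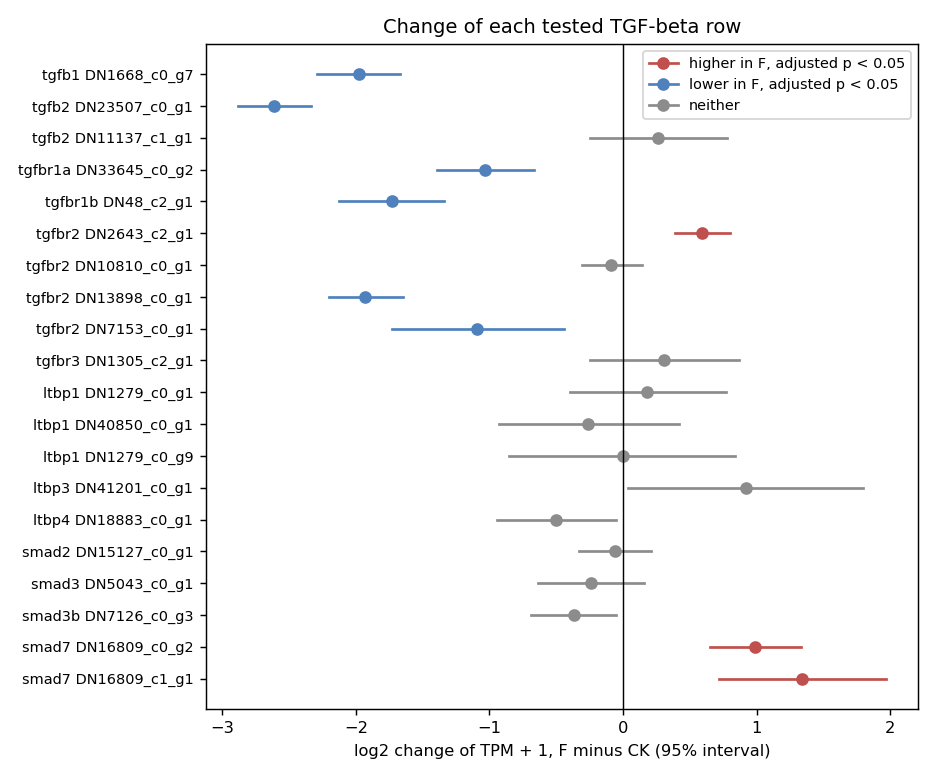
Log2 change (F minus CK, on log2(TPM + 1)) of the 20 tested member rows with its 95% interval, coloured by the call at an adjusted p below 0.05. The main tgfb2 row lies farthest to the left at -2.61. The 3 type 2 receptor rows with both ectodomain and kinase domain lie at 0.59, -0.09 and -1.93. The main smad7 row lies at 0.99 and the smaller smad7 row at 1.34.

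The order of the members by level differed between the groups. In F, ltbp1 (129.4 TPM) stood first, ahead of tgfbr2 DN2643_c2_g1 (67.4 TPM), tgfb2 (35.6 TPM) and smad7 (33.7 TPM), of which tgfb2 and smad7 overlapped. smad3b, tgfb1 and tgfbr2 DN10810_c0_g1 followed at 24.3, 23.0 and 19.96 TPM, each overlapping with the next. In CK, tgfb2 (221.9 TPM) stood first, ahead of ltbp1 (111.9 TPM) and tgfb1 (93.0 TPM), which overlapped, and of tgfbr2 DN2643_c2_g1 (44.3 TPM). tgfbr1a, smad2, smad7 and tgfbr1b were not separable in CK, with means of 16.0 to 17.1 TPM, whereas in F their means were 7.97, 15.8, 33.7 and 4.14 TPM, in that order.

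Replicate spread within F followed the library. F library 2 was the highest of the F libraries in 18 of the 20 tested members, and in 43.8% of all tested rows. F library 3 was the lowest of the F libraries in 14 of the 20, and in 39.9% of all tested rows. Left out in turn, each F library changed the number of lower member rows from 6 to 5 and left 2 or 3 higher rows.

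The other genes of the pathway were grouped in 5 lists by their role, with 1 row per gene. The genes skil, pmepa1 and tgif1 stood in both the Smad partner list and the target list, so the fall of skil counts in both. Among the partners in latency and activation, 19 of 22 genes were matched and 18 tested, of which 2 rose and 4 fell, where 6.15% of all tested rows rose and 6.07% fell (median log2 change 0.23, against -0.01 over all rows). itgb3, the beta chain of an integrin that releases ligand from latency, showed the largest fall, with 3.36, 3.22 and 6 TPM in F and 49.5, 58.1 and 59.9 TPM in CK (log2 change -3.49, limma adjusted p = 0.000585). itgb5, the chain of a related integrin, fell to 167.3 ± 22.5 TPM in F, against 327.6 ± 0.937 TPM in CK (log2 change -0.97, adjusted p = 0.00356). The other integrin chains tested, itgav, itgb6 and itgb8, averaged higher in F but were not called (limma adjusted p 0.174, 0.104 and 0.0964). The itgb6 and itgb8 rows were scarce, and the NR match of itgb6 was another gene.

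adamts1, a secreted protease, rose to 11.99 ± 1.40 TPM in F, against 0.85 ± 0.297 TPM in CK (log2 change 2.82, adjusted p = 0.00096). The gelatinases, proteases that can cleave the latent complex, moved in opposite directions. mmp9 rose to 1381 ± 156 TPM in F, against 601.6 ± 24.3 TPM in CK (adjusted p = 0.0017), and mmp2 fell to 1823 ± 76.4 TPM in F, against 2868 ± 113 TPM in CK (adjusted p = 0.00857). The mmp2 call was lost without CK library 2 (adjusted p = 0.0532), and 2 genes of the list were then lower.

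Extracellular decoys and accessory receptors changed in both directions. Of 15 genes, 11 were matched and 10 tested, of which 4 rose and 4 fell (median log2 change 0.06), beside 6.15% and 6.07% of all tested rows. Decorin (dcn), a proteoglycan that binds TGF-beta, rose to 1572 ± 186 TPM in F, against 882.7 ± 129 TPM in CK (log2 change 0.84, adjusted p = 0.0167). Biglycan (bgn), another proteoglycan of the list, went the other way. It averaged 36.0 ± 8.61 TPM in F and 139.3 ± 72.4 TPM in CK (log2 change -1.79, limma adjusted p = 0.0429). Perlecan (hspg2) rose to 37.1 ± 4.47 TPM in F, against 15.3 ± 0.286 TPM in CK, and neuropilin 1 (nrp1), a co-receptor, fell to 22.2 ± 3.41 TPM in F, against 54.6 ± 1.58 TPM in CK. The pseudoreceptor bambi (log2 change -0.60, adjusted p = 0.0107) and fstl1 (log2 change -0.45, adjusted p = 0.0111) fell by less. Added to a second bambi row, the change was -0.16 (adjusted p = 0.398). Leaving out CK library 2 removed the calls of dcn (adjusted p = 0.063), bambi (0.0533) and fstl1 (0.0594), and leaving out F library 1 that of dcn (0.0605). Without F library 1 the list had 1 higher and 3 lower genes, without CK library 1 it had 2 and 4, and without CK library 2 it had 1 and 1.

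Of 26 Smad partners and brakes, 23 were matched and tested, none rose and 4 fell (median log2 change -0.01), beside 6.15% and 6.07% of all tested rows. At an unadjusted p below 0.05 in limma, 2 were higher and 5 lower, beside 13% and 12.7% of all tested rows. ldlrad4, a membrane inhibitor of Smad activation, fell to 10.2 ± 1.37 TPM in F, against 20.1 ± 1.97 TPM in CK (log2 change -0.91, adjusted p = 0.00855). The corepressors ski (27.2 ± 4.84 TPM in F, 45.1 ± 3.49 TPM in CK, adjusted p = 0.0258) and skil (2.93 ± 0.569 TPM in F, 6.96 ± 1.27 TPM in CK, adjusted p = 0.0274) fell as well, and the phosphatase ppm1a had an adjusted p of 0.047. The ski, skil and ppm1a calls were each lost without F library 1, CK library 2 or CK library 3, among others, and the list had 1 lower gene without F library 1, CK library 2 or CK library 3 and 2 without F library 3 or CK library 1. Added to the other rows of its name, ldlrad4 had a log2 change of -0.31 (adjusted p = 0.185). The most abundant gene of the list, fkbp1a, which binds the type 1 receptor, averaged 358.2 ± 17.3 TPM in F and 343.4 ± 1.09 TPM in CK (log2 change 0.06, adjusted p = 0.635).

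Among genes known as TGF-beta targets in mammalian fibroblasts, 23 of 30 were matched and 22 tested, of which 3 rose and 9 fell (median log2 change -0.54), beside 6.15% and 6.07% of all tested rows. The row named acta2, after the smooth muscle actin of contractile fibroblasts, took its name from Swiss-Prot alone, as its NR match was a hypothetical protein. It had 347.1, 356.1 and 156.9 TPM in F and 2406, 1827 and 1359 TPM in CK. Although the CK libraries differed widely among themselves, none overlapped with F (log2 change -2.75, limma adjusted p = 0.0072). The matrix genes loxl2, which crosslinks collagen, and sparc, which binds it, fell too. loxl2 averaged 39.8 ± 4.27 TPM in F and 95.7 ± 1.52 TPM in CK (adjusted p = 0.000963), and sparc averaged 1408 ± 154 TPM in F and 3312 ± 204 TPM in CK (adjusted p = 0.00229).

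Against this direction, the transcription factor snai1 rose to 91.0 ± 15.7 TPM in F, against 41.4 ± 3.99 TPM in CK (log2 change 1.11, adjusted p = 0.00565). Added to a second row of the same name it no longer passed the test (log2 change 0.52, adjusted p = 0.0827). When 1 library was left out, 1 to 5 targets were higher and 4 to 7 lower, with 1 higher and 4 lower without CK library 2, 1 higher and 6 lower without CK library 1, 5 lower without F library 1 and 5 higher without F library 3. The name of 4 rows of this list (ccn2, tpm1, tagln, vcan) was contradicted by their NR match.

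The list of non-Smad arms had 15 of 17 genes matched and 14 tested, of which 1 rose and none fell (median log2 change -0.01), beside 6.15% and 6.07% of all tested rows. At an unadjusted p below 0.05 in limma 1 was higher and 1 lower, beside 13% and 12.7% of all tested rows. The riser was ppp2r2a, a subunit of protein phosphatase 2A, with a log2 change of 0.42 (adjusted p = 0.0481), a call lost without any 1 library other than F library 1. The adaptor traf4 had a log2 change of -0.40 (adjusted p = 0.108), which passed the threshold with median-of-ratios scaling (0.0458), with quantile normalization (0.0484) and when summed per gene name (-0.65, 0.0439). The adaptor grb2 (log2 change -0.36, adjusted p = 0.196) and the kinase mapk14 (log2 change 0.25, adjusted p = 0.291) did not pass. The most abundant gene, rhoa, averaged 375.4 ± 20.9 TPM in F and 387.3 ± 12.2 TPM in CK (log2 change -0.05, adjusted p = 0.744).

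**Figure D4:**
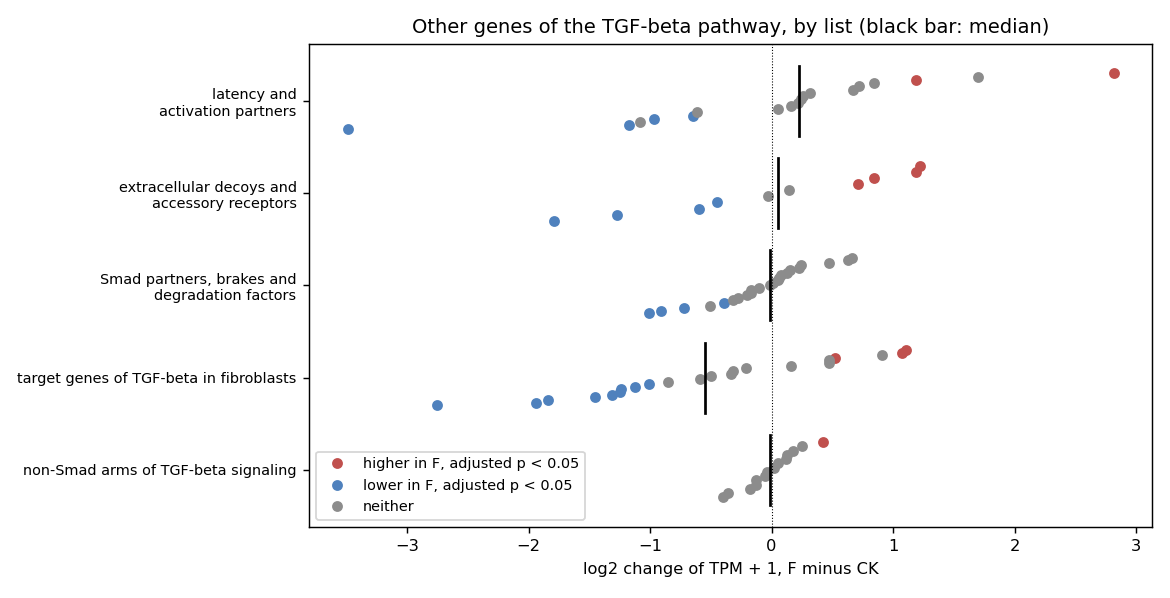
Log2 change (F minus CK) of every tested gene in 5 lists of other TGF-beta pathway genes, coloured by its call, with a black bar at the median of each list. The target genes have their median at -0.54 with 9 lower and 3 higher genes, and the Smad partners and non-Smad arms both have theirs at -0.01.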

How the data were processed

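RNA-seq was analysed in 3 F and 3 CK libraries. The authors deposited 1 table of TPM per assembled gene, which their methods credit to RSEM 1.3.3, and further tools in the submitters' notes are Cufflinks 2.2.1, TopHat2 2.1.1 and DESeq2 1.24.0. How reads shared by paralogs were divided is not given in the sources used here. The deposited group means matched the libraries and were not used. Row names came from the table's NR and Swiss-Prot columns, and a gene name from Swiss-Prot assigned rows to the pathway lists (the most abundant row where several matched).

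Rows that reached 1 TPM in 3 or more of the 6 libraries were fitted in limma 3.58.1 (R 4.3.3) as log2(TPM + 1) with a variance trend, without a block, and p-values were adjusted by Benjamini-Hochberg over all 37532 rows. Fold changes on this scale understate the change of low rows. The fit was also run on simulated rows with known changes and independent noise. That run had no effects shared by a whole library, so it does not test the calls given here. Single values were compared by exact two-sided permutation tests. From each list up to 4 genes with the smallest adjusted p and the most abundant gene were named. The alternatives were another pseudocount, other filters, rescaling of libraries, no trend, a replicate block, summing per gene name and leaving out each library. Members and lists were chosen with earlier results of these data known.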

Additional observations from a re-analysis of the deposited data

How the results depend on the processing

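Across the alternatives, tgfb1, tgfb2, tgfbr1b and the main smad7 row kept direction and call (highest adjusted p 0.0113, 0.00577, 0.0242 and 0.0436 in limma). Summing per gene name added no other row to tgfb2 or smad7 and joined tgfbr1b with tgfbr1a (log2 change -1.39), so it was not a check of these 3 rows. Member rows called higher numbered 2 to 3 and lower 4 to 5 without 1 library, against 3 and 6, and summing per gene name left 3 lower. Changes turned sign for ltbp1 DN40850_c0_g1 (0.04 without F library 1, range -0.44 to 0.04 without 1 library), ltbp1 DN1279_c0_g1 (-0.03 without F library 2, range -0.03 to 0.40), smad2 (0.01 without F library 3, range -0.14 to 0.01) and ltbp1 DN1279_c0_g9 (-0.00 with all libraries, range -0.28 to 0.19), and the cause was not tested. Summed per gene name, the change was -0.03 for tgfbr2 and 0.02 for rhoa. These are changes of sums with other rows of the name. Row DN2643_c2_g1 of tgfbr2 alone kept a positive change without any 1 library (0.54 to 0.64). Counts of the lists moved as follows. Non-Smad arms had 0 higher with a pseudocount of 0.1, without a filter, without the trend, with the replicate block and when summed, and 1 lower with median-of-ratios scaling, quantile normalization and summing. Smad partners had 1 higher with the 5 TPM filter and quantile normalization, and 2 lower without the trend and with the block. Decoys had 1 lower without the trend, and 1 higher and 2 lower with the block. Latency partners had 2 lower with the block, and targets 1 higher when summed. Without 1 library the ranges were 0 to 1 higher for non-Smad arms, 1 to 3 lower for Smad partners, 1 to 3 higher and 1 to 4 lower for decoys, 2 to 4 lower for latency partners, and 1 to 5 higher and 4 to 7 lower for targets.

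The labels do not say whether the replicate numbers shared by F and CK pair the samples. Deviations of same-numbered libraries correlated at only 0.00552, 0.00903 and 0.00608, although each F library correlated best with its own number. With 3 libraries per group these values cannot decide whether the samples were paired. With the replicate block 2 member rows were higher and 5 lower, and over all rows 941 were higher and 1071 lower, against 2310 and 2277. Leaving out list rows whose NR name is another gene, chosen after seeing the data, gave 7 lower and 3 higher targets and kept 2 higher and 4 lower latency partners. Leaving out 1 library gave 931 to 1944 rows higher and 1006 to 1888 lower. The table holds no counts, so no limit from counting is given for the low rows.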

Other observations

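Further rows of the same signaling family, chosen after their values were seen, gave the following levels. The second bambi row (DN4479_c0_g4), named as homolog a, measured 66.7, 62.5 and 76.3 TPM in F and 17.3, 21.6 and 21.5 TPM in CK (log2 change 1.72, limma adjusted p = 0.000845), in the opposite direction to homolog b (DN3053_c0_g1, log2 change -0.60, adjusted p = 0.0107). Both bambi rows summed to 206.2 ± 16.3 TPM in F and 230.2 ± 21.6 TPM in CK (SD, n = 3 each; log2 change -0.16, adjusted p = 0.398). smad1, a Smad of the bone morphogenetic protein arm, measured 58.0, 70.5 and 63.4 TPM in F and 43.9, 44.9 and 44.3 TPM in CK (log2 change 0.51, adjusted p = 0.0144), whereas smad9 had a log2 change of -0.06 (adjusted p = 0.846). In smad5, of the same arm, all F values were above all CK values, but it was not called (log2 change 0.43, limma adjusted p = 0.119). A tgfbi row (DN62_c2_g1), named for its induction by TGF-beta in mammalian cells, measured 18.8, 35.4 and 19.7 TPM in F and 122.7, 115.6 and 128.0 TPM in CK (log2 change -2.32, adjusted p = 0.0028). The tgfbi row of the target list (DN36483_c0_g1) averaged 9.11 TPM in F and 14.5 TPM in CK. It was not called (log2 change -0.59, limma adjusted p = 0.103). A col1a1 row (DN54_c0_g1), the main collagen chain of fibroblasts, averaged 5198 ± 1042 TPM in F and 12540 ± 1238 TPM in CK (log2 change -1.29, adjusted p = 0.0117). A second snai1 row (DN40410_c0_g1) overlapped between the groups (log2 change -0.53, adjusted p = 0.25), and both snai1 rows summed to a log2 change of 0.52 (adjusted p = 0.0827).

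Among 10016 named rows with a mean of at least 5 TPM, the profiles of log2(TPM + 1) over the 6 libraries, each centred on its own mean so that only the pattern and not the level was compared, closest to that of smad7 were those of slc25a37, dennd2a and ptprg, with root mean square differences of 0.038, 0.041 and 0.047. Closest to tgfb2 in the same measure were the rows named septin7 (NR name septin 15), adamts2 and crip3, at 0.084, 0.104 and 0.131. All these profiles come from the same 6 libraries.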
